A study of Homo sapiens with 6 samples.

Results

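The UBE2 genes encode the ubiquitin-conjugating enzymes, or E2 enzymes. All protein-coding genes whose symbol starts with UBE2 were taken from the count table, which gave 37 genes of 60656. They were compared between parental ZR-75-1 cells grown for 4 days with 500 nM abemaciclib, a CDK4/6 inhibitor, and the same cells grown for 4 days with DMSO, with 3 libraries in each group. ZR-75-1 is an oestrogen receptor-positive human breast cancer cell line, so both groups come from 1 line in culture, in RPMI-1640 with 10% fetal bovine serum. The RB1 knockout libraries were not analysed here. The question was how UBE2C, UBE2S and UBE2T, grouped here as cell cycle enzymes, moved beside the rest of the family when CDK4/6 was inhibited.

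An E2 enzyme takes activated ubiquitin from an E1 enzyme and, with an E3 ligase that chooses the substrate, passes it on to a protein. UBE2C and UBE2S serve the anaphase-promoting complex (APC/C), the E3 ligase that marks cyclins and securin for destruction in mitosis: UBE2C starts the ubiquitin chain and UBE2S lengthens it through K11 linkages. UBE2T works with the ligase FANCL to attach ubiquitin to FANCD2 and FANCI in the Fanconi anaemia pathway of DNA crosslink repair. Other members carry related modifiers such as NEDD8, ISG15 or FAT10 in place of ubiquitin or beside it.

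Reads from transcript ends were counted, so counts do not grow with the length of the transcript. Levels were set side by side between genes on that basis, although genes with near copies or shared ends have a less certain level. Library totals ran from 3317860 to 4013156 counts, and levels are given as CPM (counts over a common library total, TMM-scaled), where 3 counts, the limit that a count of 0 allows, were worth 0.740 to 0.909 CPM; this limit covers counting error only. Abemaciclib replicate 3 stood apart within its group, with a chi-square per degree of freedom over genes of 6.98 and 7.41 against the other abemaciclib libraries, whereas those 2 gave 3.47 with each other and pairs of DMSO libraries gave 2.83 to 4.21. All 10 luminal breast markers checked had over 100 counts in every library, and of 15 markers of basal, stromal, endothelial or blood cells 10 were at 0 in all libraries and 13 stayed under 10 counts in every library. The exceptions were COL1A1 (35 to 57 counts) and ACTA2 (21, 28 and 44 counts with DMSO, 6, 2 and 6 with abemaciclib). The proliferation markers MKI67, TOP2A and CCNA2 fell with abemaciclib, with log2 fold changes of −6.71, −4.30 and −5.17, as did CDK1 and CCNB1, with −3.34 and −2.11. The part of these shifts in the results for UBE2 genes was not tested. Fewer cells in cycle and less RNA in each such cell cannot be told apart in these bulk samples.

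Of the 37 UBE2 genes, 31 had enough counts to be tested and 6 did not. With abemaciclib, 7 of the 31 were lower and 2 were higher at an adjusted P under 0.05, and 22 did not pass. Among all 10863 genes tested, 13.3% were lower and 12.5% were higher. The 3 cell cycle enzymes were all among the 7 lower genes, and the other 28 tested members divided into 4 lower, 2 higher and 22 that did not pass. The median log2 fold change was −2.41 over UBE2C, UBE2S and UBE2T and 0.06 over the other 28, beside −0.0018 over all genes tested. These medians describe the genes and were not tested. Without abemaciclib replicate 2, 4 UBE2 genes were lower and 1 was higher, and 1 was higher also without DMSO replicate 1, 2 or 3.

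**Figure D1:**
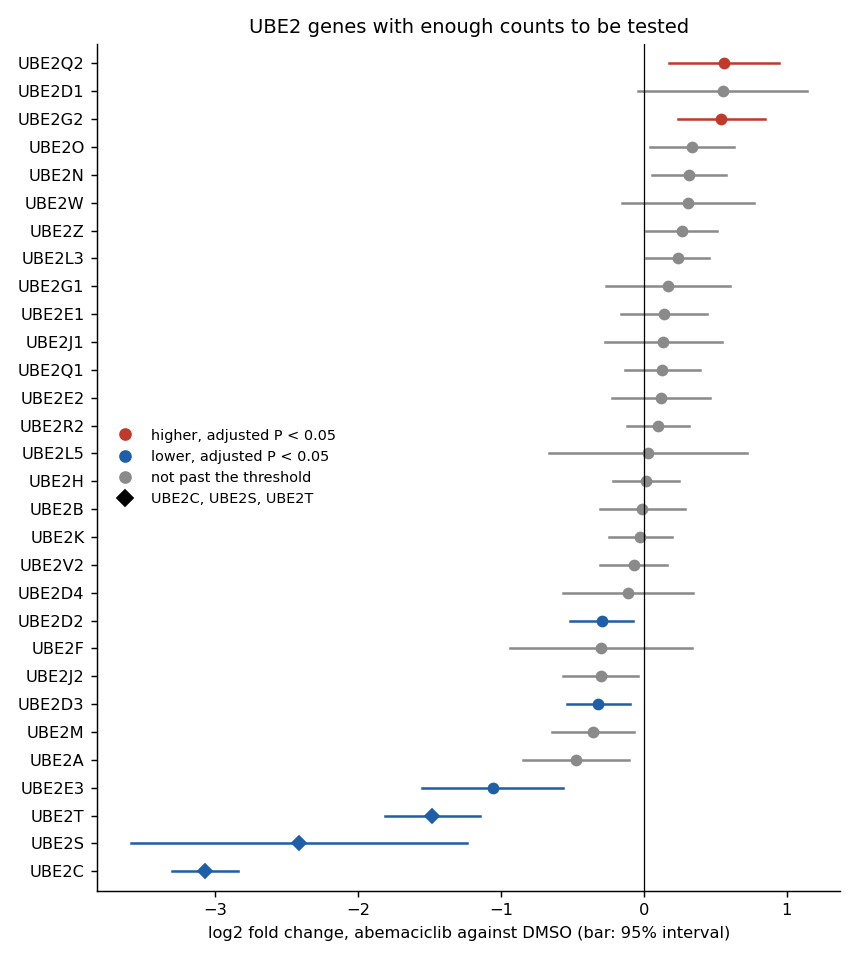
Log2 fold change (abemaciclib against DMSO, horizontal axis) of 30 of the UBE2 genes tested, with 95% intervals as bars and diamonds for UBE2C, UBE2S and UBE2T. The 3 diamonds and UBE2E3 lie at the lower end, from −3.07 to −1.06, and the other 26 genes shown lie between −0.48 and 0.56.

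UBE2C (ENSG00000175063.17; GRCh38 chromosome 20, 45812576 to 45816957, plus strand, 6 exons in its canonical transcript) showed the largest change of the 31 genes. Its counts were 1128, 1182 and 1114 in the DMSO libraries and 142, 159 and 143 in the abemaciclib libraries. All abemaciclib libraries were far below all DMSO libraries, and the libraries of each group lay close together. The level fell from 338.6 ± 12.0 to 40.3 ± 2.34 CPM (SD, n = 3 each), a log2 fold change of −3.07 (standard error 0.11, 95% interval −3.31 to −2.84, adjusted P = 2.41e-18), or 8.41-fold lower. With the counts of 5 annotated UBE2C pseudogenes added, the log2 fold change was −2.88. In DMSO, UBE2C had the highest mean level of the family, although its libraries overlapped with those of UBE2Z, the second gene (313.3 ± 33.8 CPM). With abemaciclib it ranked 21 of 37.

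UBE2S (ENSG00000108106.14; chromosome 19, 55399745 to 55407788, minus strand, 4 exons), the chain-lengthening partner of UBE2C at the APC/C, was measured at a much lower level. It had 32, 27 and 12 counts with DMSO and 8, 3 and 3 with abemaciclib. The groups did not overlap, but DMSO replicate 3 was closer to the abemaciclib libraries than the other DMSO libraries were. The level went from 6.98 ± 2.96 to 1.32 ± 0.950 CPM (SD, n = 3 each), with a log2 fold change of −2.41 (standard error 0.57, 95% interval −3.59 to −1.24, adjusted P = 0.00222). Summed over libraries, 14 counts against 71 put the abemaciclib level at 18.0% of that in DMSO, with an exact Clopper–Pearson-based 95% interval of 9.39% to 32.3% that covers counting error only. Without abemaciclib replicate 1 the log2 fold change was −3.12, and with the counts of 2 annotated UBE2S pseudogenes added it was −2.09. These pseudogenes had 20 counts over all libraries beside 85 on UBE2S. They may share reads with UBE2S, so its level beside other genes is uncertain.

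UBE2T (ENSG00000077152.11; chromosome 1, 202331544 to 202341984, minus strand, 7 exons), the E2 enzyme of the Fanconi anaemia pathway, fell less than UBE2C. Its counts were 509, 549 and 315 with DMSO and 169, 159 and 205 with abemaciclib. Every abemaciclib library was below every DMSO library, with DMSO replicate 3 the lowest of its group. The level fell from 135.4 ± 35.5 to 48.6 ± 8.38 CPM (SD, n = 3 each), a log2 fold change of −1.48 (standard error 0.16, 95% interval −1.82 to −1.15, adjusted P = 4.03e-08), or 2.79-fold lower. The intervals of UBE2C and UBE2T did not overlap, whereas that of UBE2S overlapped both. In counts, UBE2C stood at 2.22, 2.15 and 3.54 times UBE2T in the DMSO libraries and at 0.840, 1.00 and 0.698 times UBE2T in the abemaciclib libraries.

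Set against the rest, the 95% intervals of 27 of the other 28 tested members lay wholly above those of UBE2C, UBE2S and UBE2T. The exception was UBE2E3, whose interval overlapped those of UBE2S and UBE2T. Together, the 3 cell cycle enzymes took 15.6%, 16.9% and 13.6% of all UBE2 counts in the DMSO libraries and 3.54%, 2.85% and 3.49% in the abemaciclib libraries. Their summed level was 480.9 ± 43.0 CPM with DMSO and 90.2 ± 9.55 CPM with abemaciclib (SD, n = 3 each). The summed level of the other 34 genes was 2658 ± 104 CPM with DMSO and 2652 ± 43.3 CPM with abemaciclib, a difference smaller than the spread between libraries. The family as a whole went from 3139 ± 62.5 to 2742 ± 33.9 CPM.

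**Figure D2:**
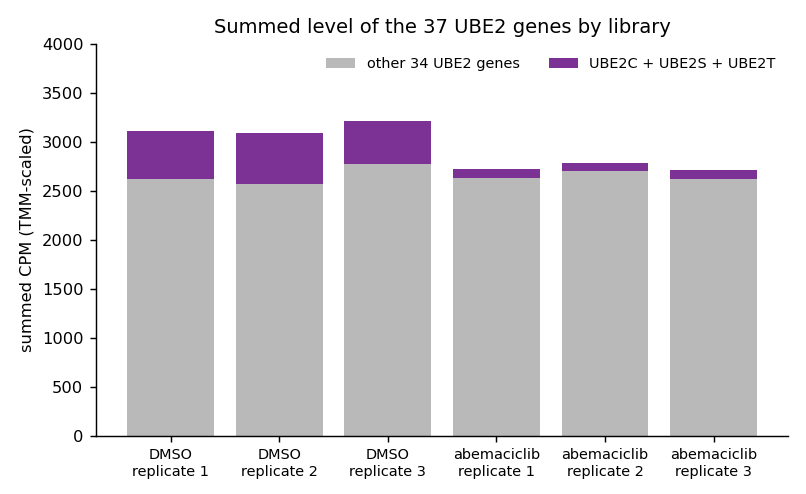
Summed level of the 37 UBE2 genes (CPM, vertical axis, from 0) in each library, with UBE2C, UBE2S and UBE2T in purple above the other 34 genes in grey. The purple part shrank from a mean of 480.9 to 90.2 CPM, and the grey part stayed between 2574 and 2774 CPM in all 6 libraries.

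The promoters of UBE2T, UBE2S and UBE2E3, the lower genes with a fold change over 2 for which RefSeq gave a promoter, are shown to set their sequence beside the counts. Among the members with no entry in the table were UBE2B, UBE2C, UBE2H, UBE2L5, UBE2NL, UBE2Q1, UBE2V2 and UBE2W, and 28 members were matched. Each sequence covers the 250 bases before the RefSeq start on GRCh38.p14, 5′ to 3′ on the strand of the gene: chr1:202341937-202342186 (minus) for UBE2T, chr19:55407789-55408038 (minus) for UBE2S and chr2:180980110-180980359 (plus) for the first of 2 UBE2E3 starts. Capitals mark 3 kinds of word searched on both strands: the CHR element known from promoters of mitotic genes (TTTGAA, searched also in the form TTTAAA), the CCAAT box (CCAAT, which reads as ATTGG when it lies on the other strand) and E2F words (TTTCCCGC, TTTGGCGC, TTTCGCGC or TTTGCCGC).
UBE2T: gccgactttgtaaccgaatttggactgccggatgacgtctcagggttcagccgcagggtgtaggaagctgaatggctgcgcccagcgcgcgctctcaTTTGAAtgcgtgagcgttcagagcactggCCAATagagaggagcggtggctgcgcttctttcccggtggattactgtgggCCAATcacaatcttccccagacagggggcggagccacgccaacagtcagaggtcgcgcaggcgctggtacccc
UBE2S: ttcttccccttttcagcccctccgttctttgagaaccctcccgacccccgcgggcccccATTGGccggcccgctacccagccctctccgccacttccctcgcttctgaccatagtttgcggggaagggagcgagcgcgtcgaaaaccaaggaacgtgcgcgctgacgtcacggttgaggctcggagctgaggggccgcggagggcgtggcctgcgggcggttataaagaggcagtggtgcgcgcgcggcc
UBE2E3: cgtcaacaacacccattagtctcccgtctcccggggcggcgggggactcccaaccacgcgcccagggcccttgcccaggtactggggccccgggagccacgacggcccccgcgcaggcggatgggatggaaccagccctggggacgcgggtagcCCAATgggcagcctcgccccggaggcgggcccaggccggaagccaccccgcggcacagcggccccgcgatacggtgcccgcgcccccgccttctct

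The UBE2T promoter held a CHR word and 2 CCAAT boxes, with the CHR word at bases −153 to −148 and the boxes at −124 to −120 and −73 to −69, counted from the start. UBE2S held 1 CCAAT box on the opposite strand, at −191 to −187, and the window of the first UBE2E3 start held 1, at −96 to −92. The window of the second UBE2E3 start held 0 matches to any of these words. Of the 28 matched members, 6 held a CHR word, 10 a CCAAT box, 5 both and 0 an E2F word in at least 1 of their 40 windows. Among all 35116 windows of the same length, 21.86% held a CHR word, 32.01% a CCAAT box, 7.64% both and 2.79% an E2F word. These shares are by window, whereas a member was counted if any of its windows matched. Members with several windows had more chances of a match, so the member counts cannot be read directly against these shares. The members with both, other than UBE2T, were UBE2D3, UBE2F, UBE2U and the read-through gene UBE2F-SCLY, whose window overlaps that of UBE2F. Such matches describe letters only.

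UBE2E3 belongs to the E2 enzymes that work with many different E3 ligases, a group of 8 made up of UBE2D1 to UBE2D4, UBE2E1 to UBE2E3 and UBE2W. Of these 8, 3 fell, 0 rose and 5 did not pass. UBE2E3 (ENSG00000170035.16; chromosome 2, 180967248 to 181076585, plus strand, 6 exons) had 106, 70 and 76 counts with DMSO and 46, 43 and 42 with abemaciclib, without overlap. Its level fell from 24.9 ± 5.22 to 12.0 ± 1.74 CPM (SD, n = 3 each), a log2 fold change of −1.06 (standard error 0.24, 95% interval −1.56 to −0.57, adjusted P = 0.00143). Its close relatives UBE2E1 (0.14, 95% interval −0.16 to 0.44) and UBE2E2 (0.12, −0.22 to 0.46) did not pass, and their intervals did not overlap with that of UBE2E3. UBE2E3 had 0.592, 0.507 and 0.603 counts for each count of UBE2E2 in the DMSO libraries and 0.247, 0.249 and 0.258 in the abemaciclib libraries. The last 500 bases of UBE2E1 lie opposite NKIRAS1, so the count of UBE2E1 is uncertain if strand was not used in counting.

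The UBE2D enzymes are the general partners of RING ligases. UBE2D3 had 971, 828 and 782 counts with DMSO and 622, 786 and 853 with abemaciclib, or 254.8 ± 23.7 and 204.2 ± 22.9 CPM (SD, n = 3 each). After scaling, its groups did not overlap, although DMSO replicate 3 (236.9 CPM) and abemaciclib replicate 3 (230.5 CPM) lay close to each other. UBE2D3 fell by 0.32 on the log2 scale (standard error 0.11, adjusted P = 0.0263), and UBE2D2, with 152.2 ± 3.38 CPM against 124.0 ± 9.28 CPM (SD, n = 3 each), fell by 0.30 (standard error 0.11, adjusted P = 0.0440). Both calls were fragile, since UBE2D2 kept its call in 5 of 13 alternative analyses and UBE2D3 in 8 of 13. UBE2D1, at a low level of 27, 44 and 32 counts against 55, 65 and 45, had the widest interval of the group around 0.55 (−0.04 to 1.14), and UBE2D4 stood at −0.11. UBE2W, which attaches ubiquitin to the amino terminus of proteins, stood at 0.31 (−0.15 to 0.77).

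**Figure D3:**
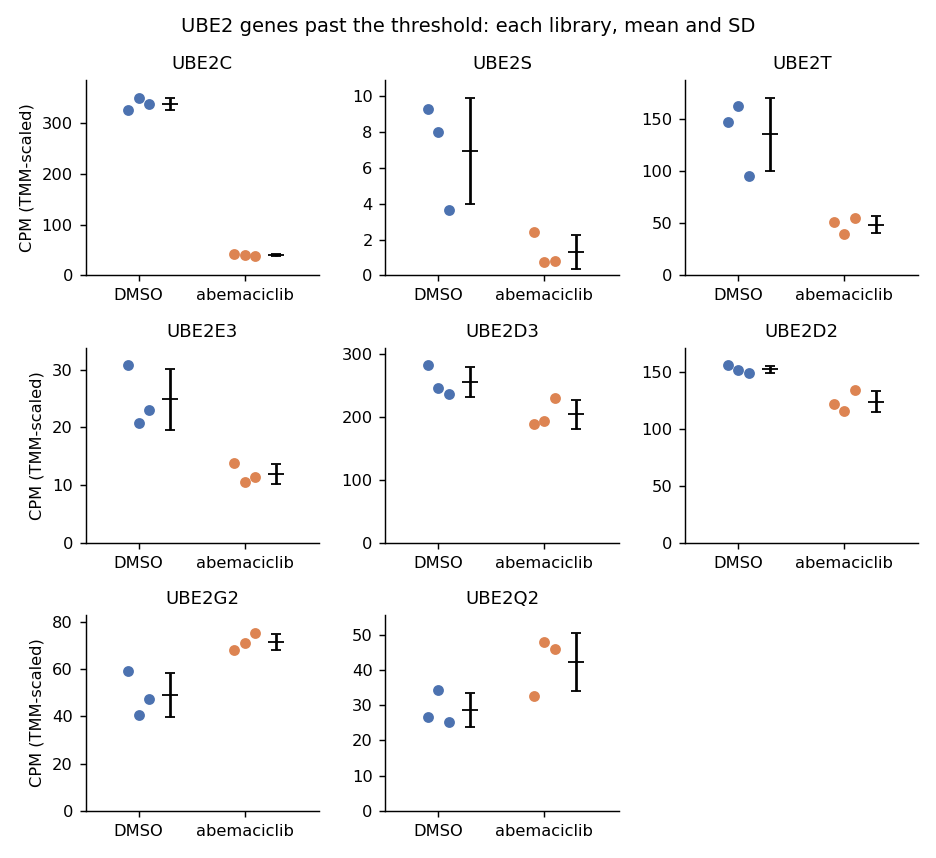
Level (CPM, vertical axes from 0) of 8 UBE2 genes past the threshold in each DMSO (blue) and abemaciclib (orange) library, with the mean and SD of 3 libraries in black. The groups are apart in 7 of the 8 panels and overlap for UBE2Q2, and the gap is wide for UBE2C and narrow for UBE2D3 and UBE2D2.

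UBE2M and UBE2F pass NEDD8 to cullins, and neither passed the test, with log2 fold changes of −0.36 (95% interval −0.64 to −0.07, adjusted P = 0.0613) and −0.30 (−0.94 to 0.34). UBE2M was called without DMSO replicate 1 (−0.49, adjusted P = 0.0212).

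UBE2Z, which is charged by the E1 enzyme UBA6 and can carry FAT10, was split by 1 library. Its counts were 965, 1052 and 1147 with DMSO and 1405, 1711 and 1036 with abemaciclib. Abemaciclib replicates 1 and 2 stood above every DMSO library at 425.1 and 422.1 CPM, and abemaciclib replicate 3, the library that stood apart, was level with DMSO replicate 1 at 279.9 CPM. At 0.26 on the log2 scale (standard error 0.12, adjusted P = 0.121) it did not pass, and without abemaciclib replicate 3 it was 0.44 (adjusted P = 6.23e-05). UBE2L6, the E2 enzyme of ISG15, had 5, 0 and 0 counts with DMSO and 1, 1 and 0 with abemaciclib and was not tested.

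The 4 tested E2 enzymes of post-replication repair and K63-linked chains did not pass, and UBE2A and UBE2N had an unadjusted P under 0.05. UBE2A and UBE2B, the human RAD6 proteins, act with RAD18 on PCNA and with RNF20 and RNF40 on histone H2B. UBE2A had 184, 145 and 166 counts with DMSO and 97, 122 and 170 with abemaciclib, a log2 fold change of −0.48 (95% interval −0.85 to −0.11, adjusted P = 0.0511). Here too abemaciclib replicate 3 lay among the DMSO libraries, and without it UBE2A was called lower (−0.72, adjusted P = 0.00229). Its near copy UBE2B stood at −0.01 (−0.31 to 0.29).

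UBE2N builds K63-linked chains with the inactive E2 variants UBE2V1 or UBE2V2. Its counts of 241, 220 and 219 with DMSO and 280, 333 and 310 with abemaciclib gave 65.4 to 69.9 CPM against 82.2 to 84.7 CPM, so that all abemaciclib libraries were higher, yet the log2 fold change of 0.31 (95% interval 0.05 to 0.57, adjusted P = 0.0675) missed the threshold. The last 500 bases of UBE2N lie opposite NUDT4. UBE2V2 stood at −0.07 (−0.31 to 0.16). UBE2V1 had 2, 0 and 3 counts with DMSO and 0 in every abemaciclib library, and its last 500 bases are shared on the same strand with the read-through gene PEDS1-UBE2V1, which also had 0 counts. The level of UBE2V1 is uncertain, as counting could not assign reads of a shared end to 1 gene. UBE2NL, a close copy of UBE2N, had 8, 2 and 19 counts with DMSO and 3, 8 and 9 with abemaciclib.

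Of the 3 E2 enzymes of protein degradation at the endoplasmic reticulum, UBE2G2 rose and UBE2J1 and UBE2J2 did not pass. UBE2G2 had 204, 137 and 156 counts with DMSO and 225, 288 and 278 with abemaciclib. On the CPM scale the groups did not overlap, at 49.0 ± 9.37 with DMSO and 71.4 ± 3.54 with abemaciclib (SD, n = 3 each). UBE2G2 rose by 0.54 on the log2 scale (standard error 0.15, adjusted P = 0.00743), and the call was lost without DMSO replicate 2 (0.42, adjusted P = 0.0763). UBE2J1, which is anchored in the membrane as is UBE2J2, stood at 0.13 (95% interval −0.28 to 0.54) and UBE2J2 at −0.30 (−0.57 to −0.04, adjusted P = 0.0823).

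The 3 enzymes that extend K48-linked chains, the signal for the proteasome, did not pass. UBE2R2, a partner of cullin ligases, stood at 0.10 (95% interval −0.12 to 0.31), UBE2K at −0.03 (−0.24 to 0.19) and UBE2G1 at 0.17 (−0.27 to 0.60). UBE2R2 ranked 5 in DMSO and 3 with abemaciclib among the 37 genes by mean CPM, and UBE2K ranked 6 and 5.

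Of the 8 remaining members with a role of their own, 6 were tested, of which 1 rose and 5 did not pass. UBE2Q2 rose from 28.7 ± 4.82 to 42.2 ± 8.27 CPM (SD, n = 3 each), with counts of 92, 115 and 83 against 108, 194 and 170. Its groups overlapped, with abemaciclib replicate 1 (32.7 CPM) below DMSO replicate 2 (34.2 CPM). On the log2 scale the rise was 0.56 (standard error 0.19, adjusted P = 0.0276), and the call was lost in 5 of 13 alternatives, among them adding the counts of 10 annotated UBE2Q2 pseudogenes (0.45, adjusted P = 0.0639). UBE2Q2 and its pseudogenes can share reads, so its level is uncertain.

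UBE2L3, the partner of HECT and RBR ligases, went from 412, 446 and 452 counts to 487, 605 and 595, with every abemaciclib library higher on the CPM scale, but its log2 fold change of 0.23 did not pass (95% interval 0.01 to 0.46, adjusted P = 0.116). UBE2L5, a near copy of UBE2L3, stood at 0.03 with a wide interval (−0.67 to 0.72). UBE2O, which joins E2 and E3 activity in 1 protein, stood at 0.33 (0.04 to 0.63, adjusted P = 0.0880). UBE2H, the partner of the CTLH ligase, stood at 0.01 (−0.22 to 0.25) and UBE2Q1 at 0.13 (−0.14 to 0.39). UBE2QL1, UBE2U and UBE2F-SCLY had 0 counts in all 6 libraries. For UBE2QL1 and UBE2U this allows up to 0.740 to 0.909 CPM each. Of the last 500 bases of UBE2F-SCLY, 304 are shared on the same strand with SCLY or UBE2F. The level of UBE2F-SCLY is therefore uncertain, as counting could not assign reads of a shared end to 1 gene.

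Over the family, every abemaciclib library lay below every DMSO library for 7 of the 31 tested genes and above for 3, beside 20.1% and 19.1% of all genes tested. The 7 were the 7 lower genes, and the 3 were UBE2G2, UBE2N and UBE2L3. For 21 of the 22 genes that did not pass, the 95% interval stayed within a 2-fold change in either direction, and for 14 within 1.5-fold. The exception at 2-fold was UBE2D1. Of the 22 genes, 7 had an unadjusted P under 0.05.

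The enzymes work with partners, and 109 E1 enzymes, modifiers, other E2 enzymes, ligases and their regulators were listed by role. Of these, 102 were tested, of which 15 fell, 10 rose and 77 did not pass, with a median log2 fold change of −0.01. The count of 10 became 6 when DMSO replicate 1 or 2 was left out, and likewise with abemaciclib replicate 2 or 3 left out. The share in each direction can be read against 13.3% lower and 12.5% higher among all genes tested.

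Of 15 tested APC/C genes, which UBE2C and UBE2S serve, 3 fell and 1 rose. FBXO5 (EMI1), an inhibitor of the APC/C, went from 208, 224 and 251 counts to 18, 15 and 13 and fell by 4.01 on the log2 scale (standard error 0.23, adjusted P = 3.61e-14). CDC20, the activator that brings substrates to the APC/C in mitosis, went from 141, 124 and 165 counts to 28, 43 and 29 and fell by 2.24 (standard error 0.22, adjusted P = 6.36e-09). Of the rest, ANAPC15 fell by 0.69, ANAPC13 rose by 0.41 and the other 11 genes did not pass, among them FZR1, the activator of the APC/C in G1 (−0.01, 95% interval −0.33 to 0.32).

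Of 12 Fanconi anaemia genes around UBE2T, 5 fell, 1 rose and 6 did not pass, with a median of −0.71. FANCI and FANCD2, the pair to which UBE2T attaches ubiquitin, fell by 1.71 (adjusted P = 9.72e-08) and 0.59 (adjusted P = 0.00402). USP1, which takes that ubiquitin off, went from 259, 298 and 252 counts to 75, 150 and 125 and fell by 1.35 (adjusted P = 2.78e-07). FANCA and FANCE, subunits of the core ligase complex, fell by 2.13 (33, 41 and 41 counts against 5, 19 and 5, adjusted P = 0.000615) and 1.86 (30, 15 and 13 against 6, 4 and 7, adjusted P = 0.0125). FANCM, which anchors the complex to DNA, rose by 0.92 (adjusted P = 0.0175). FANCL, the ligase that binds UBE2T, had 9 to 19 counts a library and a log2 fold change of −0.29 with an interval too wide to place it (−1.23 to 0.65).

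**Figure D4:**
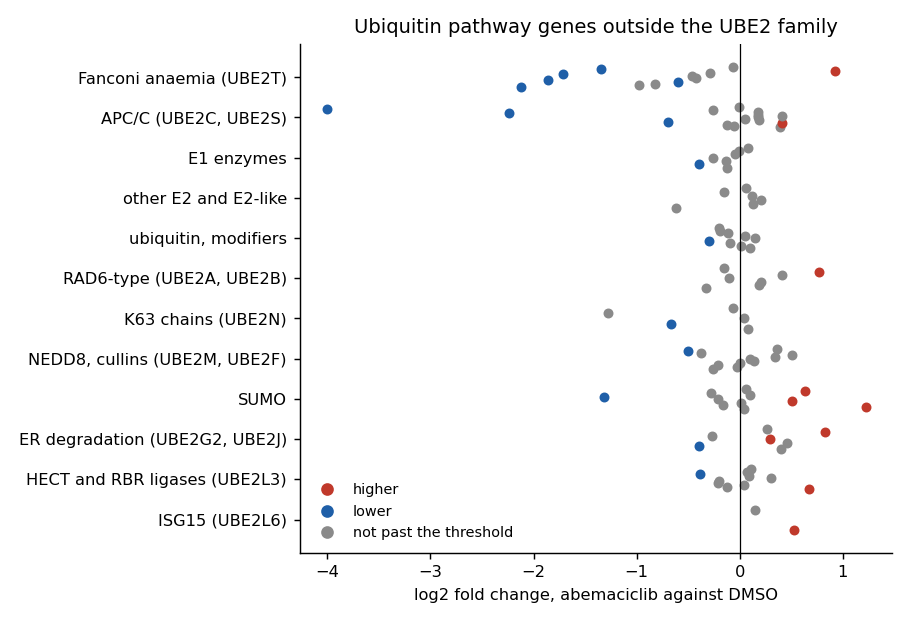
Log2 fold change (abemaciclib against DMSO, horizontal axis) of 102 ubiquitin pathway genes outside the UBE2 family, 1 point a gene, in rows by role. The points farthest to the left are FBXO5 (−4.01) and CDC20 (−2.24) in the APC/C row and FANCA (−2.13) in the Fanconi anaemia row, and the point farthest to the right is PIAS2 (1.22) in the SUMO row.

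Among 11 listed genes of the SUMO pathway, 3 rose and 1 fell. The SUMO ligase PIAS2 rose from 87, 88 and 75 counts to 182, 229 and 226 (log2 fold change 1.22, standard error 0.16, adjusted P = 1.49e-06), and the SUMO protease SENP1 fell from 114, 140 and 122 to 50, 54 and 61 (−1.31, standard error 0.20, adjusted P = 1.30e-05). Another SUMO protease, SENP5, went the other way and rose by 0.63 (adjusted P = 0.0406), with groups that overlapped. RANBP2 rose by 0.51 (adjusted P = 0.0202). Around UBE2G2, SEL1L, a scaffold of degradation at the endoplasmic reticulum, rose by 0.82 (adjusted P = 2.25e-05) and MARCHF6 by 0.29 (adjusted P = 0.0495), while AUP1, which recruits UBE2G2, fell by 0.39 (adjusted P = 0.0482), with the other 4 genes of that group not passing. Among the NEDD8 and cullin genes RBX1 fell by 0.51 (adjusted P = 0.00272) and the other 10 did not pass.

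The remaining groups held few calls. SAE1, a subunit of the SUMO E1 enzyme, fell by 0.40 (adjusted P = 0.0163), and the other 6 tested E1 genes, including UBA1 (−0.14, 95% interval −0.35 to 0.07), the main E1 of ubiquitin, did not pass. SUMO2 fell by 0.30 (adjusted P = 0.0274) among 9 genes for ubiquitin and its relatives. Among the RAD6, K63, HECT and RBR, and ISG15 groups, the genes called were UBR1 (0.77), RNF168 (−0.66), ARIH1 (0.67), UBE3A (−0.39) and TRIM25 (0.53). The 6 tested E2 and E2-like genes without a UBE2 symbol did not pass, with log2 fold changes from −0.61 to 0.21.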

How the data were processed

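Reads from the 3′ ends of mRNA were trimmed (BBDuk), mapped to hg38 (STAR 2.7.5b) and assigned to GENCODE genes (featureCounts 2.0.1) by the authors, who deposited raw counts without scaling. Whether strand was used in counting is not given in the sources used here, so counts of genes overlapping on opposite strands are uncertain. The 3 libraries a group are described as independent replicates.

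Identifiers were matched to symbols for 60401 genes and 255 had none. Coordinates and 500-base end windows were read from a newer GENCODE annotation of GRCh38. Counts were filtered (filterByExpr), scaled (TMM) and tested by quasi-likelihood in edgeR 4.0.16 under R 4.3.3 (glmQLFit and glmQLFTest, with Benjamini–Hochberg adjusted P over 10863 genes and a threshold of 0.05), abemaciclib against DMSO, with no other term. The standard error is the log2 fold change divided by the square root of F. The biological coefficient of variation was 13.2%. The test was checked on simulated counts.

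The members and lists were chosen with earlier results of these data known. Members past the threshold were given by library, except 1 that is counted but not reported here, and pathway genes were named when called and changed by 1 or more on the log2 scale. Smaller pathway calls, FANCL, FZR1 and UBA1 were named after their values were seen. Alternatives were DESeq2 1.42.0, its size factors, total counts, no filter, at least 10 counts in every library, a replicate block, members summed with pseudogenes, and each library left out.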

Additional observations from a re-analysis of the deposited data

How the results depend on the processing

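UBE2C, UBE2T and UBE2E3 stayed lower at an adjusted P under 0.05 in 13 of 13 alternatives, and UBE2S in 12 of 12, since it could not be tested with at least 10 counts in every library. Of 402 values of members under the alternatives, 358 had the same sign and the same call, 22 lost their call, 5 gained one and 17 changed direction, all 17 for genes that passed the threshold neither in the analysis reported above nor in the alternative. These were UBE2H with total counts (−0.00018), UBE2L5 with the replicate block (−0.0016), and 15 values with 1 library left out, where the log2 fold change ranged from −0.21 to 0.098 for UBE2B, −0.048 to 0.12 for UBE2H, −0.11 to 0.064 for UBE2K, −0.13 to 0.23 for UBE2L5, −0.22 to 0.045 for UBE2D4, −0.0098 to 0.26 for UBE2E2 and −0.0091 to 0.33 for UBE2J1. With the replicate number as a block, 4 UBE2 genes were lower in place of 7, with UBE2D2 and UBE2D3 among those lost, and 2 stayed higher. Libraries with the same replicate number did not deviate together (correlations of −0.04, 0.01 and −0.09), beside −0.06 to 0.10 for libraries with different numbers. These values cannot settle whether libraries with the same number were set up together. With pseudogenes added, 1 UBE2 gene was higher in place of 2. Leaving out 1 library at a time gave 1 to 2 UBE2 genes higher, 4 to 8 lower, 6 to 10 pathway genes higher, a median log2 fold change of −3.12 to −2.11 for UBE2C, UBE2S and UBE2T, and one of 0.013 to 0.091 for the other members. The last value was 0.014 without DMSO replicate 2, 0.013 without abemaciclib replicate 2 and 0.019 without abemaciclib replicate 3. The causes were not tested. Low counts left UBE2S, UBE2L5, UBE2F and UBE2D1 with the widest intervals of the 31 genes tested.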

Other observations

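Annotated pseudogenes of UBE2 genes took a share of counts that differed between genes. The 10 pseudogenes of UBE2Q2 had 120 counts over the 6 libraries beside 762 on UBE2Q2, and the 2 pseudogenes of UBE2S had 20 beside 85 on UBE2S. The 5 pseudogenes of UBE2C had 15, 13 and 9 counts with DMSO and 18, 16 and 33 with abemaciclib, summed to 104 beside 3868 counts on UBE2C itself. Of the counts on UBE2C, 3424 were in the DMSO libraries and 444 in the abemaciclib libraries, so the pseudogene share was larger with abemaciclib. The 4 pseudogenes of UBE2D3 had 25, 9 and 20 counts with DMSO and 3, 4 and 9 with abemaciclib. The 16 pseudogenes of UBE2V1 had 13 counts over the 6 libraries, more than the 5 on UBE2V1. PEDS1, the upstream gene of the PEDS1-UBE2V1 read-through, had 44, 47 and 54 counts with DMSO and 82, 108 and 75 with abemaciclib.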
